A study of Homo sapiens with 11 samples.

Results

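The genes described here encode the nuclear subunits and NDUFAF assembly factors of respiratory complex I. They were the 44 rows of the count table whose symbol is NDUF followed by letters and a number, out of 19990 genes in all. The set held 35 structural subunits, 8 NDUFAF assembly factors and NDUFA4, which carries a complex I name but is now assigned to complex IV. NDUFA3, NDUFA6 and the mitochondrially encoded subunits are not analysed here. The cells were cardiomyocytes differentiated at passage 63 from WTC11, a widely used human pluripotent line made by reprogramming. All wells came from 1 differentiation, started with CHIR99021 (a GSK3 inhibitor that activates Wnt signalling) and continued with IWP2 (a Wnt secretion inhibitor), and were then kept in B27 medium with insulin. Poly(A) RNA-seq covered Day 30 (4 wells), Day 60 (3 wells) and Day 113 (4 wells), and the question was how the transcriptome changes over long culture. Because the replicates were wells of 1 differentiation of 1 line, the p-values measure only the spread between wells, and day cannot be told apart from collection.

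Complex I is the L-shaped entry point of the respiratory chain. It takes electrons from NADH in the matrix arm, passes them over flavin and iron-sulfur clusters to ubiquinone, and uses the energy to pump protons through the membrane arm. The N-module binds NADH, the Q-module reduces ubiquinone, accessory subunits stabilise both arms, and assembly factors put the pieces together without staying in the finished enzyme. Heart muscle cells are rich in mitochondria, and their oxidative capacity is known to grow with maturation.

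From Day 30 to Day 113, 19 of the 44 complex I genes rose, 25 did not pass the test, and the largest change was in NDUFB2, an accessory subunit of the membrane arm. The 19 were higher at an adjusted p under 0.05 (edgeR quasi-likelihood test, adjusted over all genes) and 0 were lower, and 0 were lower at an unadjusted p under 0.05. That is 43.2% of the members, against 17.3% of all genes called higher and 17.2% called lower in the same comparison. The median log2 fold change of the 44 genes was 0.34, against -0.02 for all genes, and 42 of them had a value above 0. NDUFB2 (1.07), NDUFB6 (0.88), NDUFAF8 (0.85), NDUFB3 (0.75), NDUFC2 (0.72) and NDUFA5 (0.69) had the highest log2 fold changes. The Day 113 wells disagreed among themselves by more than the earlier wells did. The median coefficient of variation of a member was 7.98% at Day 30, 8.62% at Day 60 and 20.9% at Day 113.

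**Figure D1:**
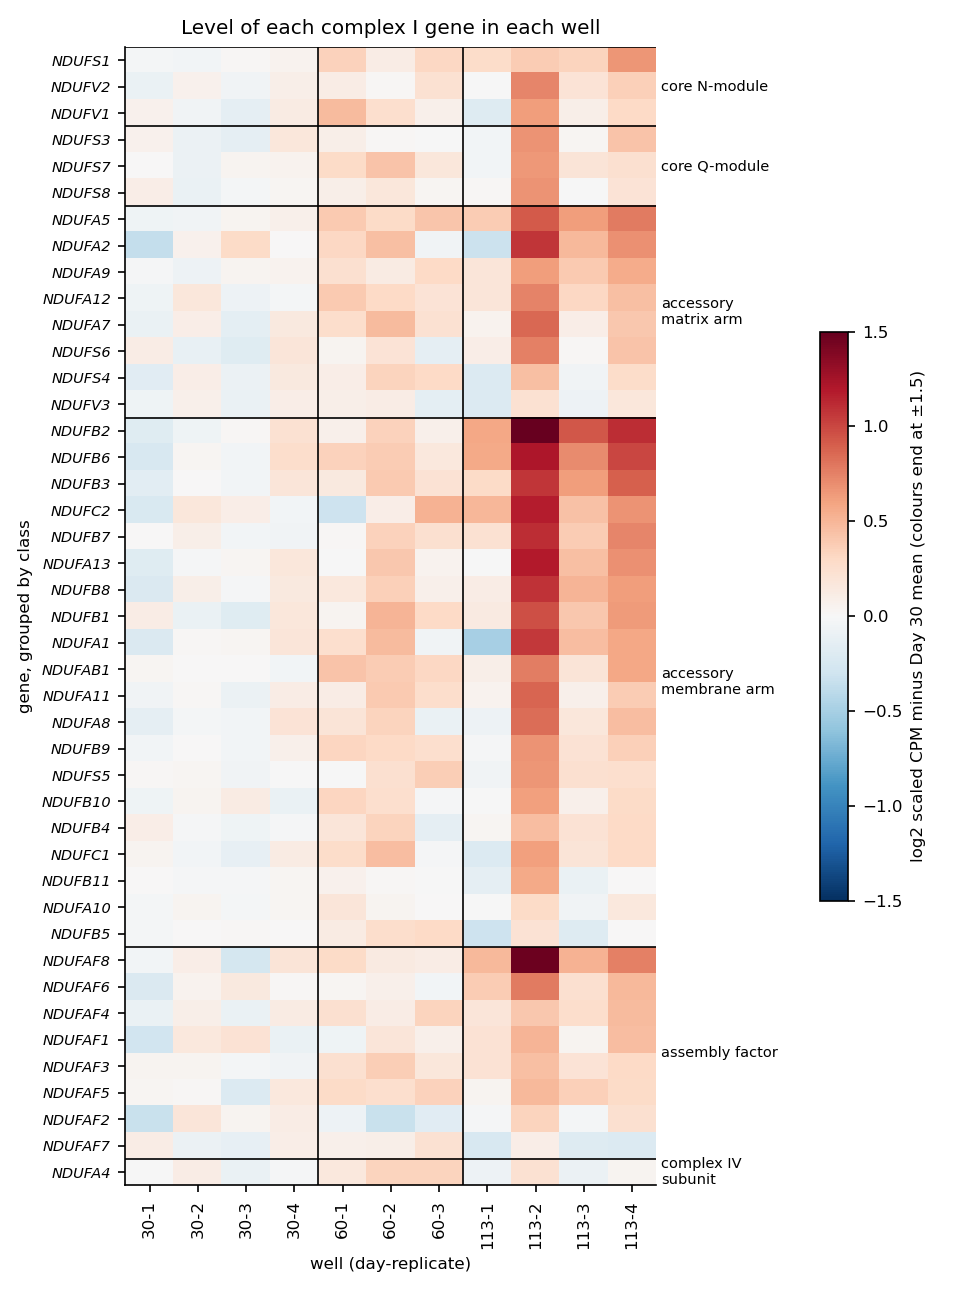
Log2 scaled CPM (counts per 1e+06 of the scaled library total) of 43 genes in each of the 11 wells, minus the mean of the Day 30 wells, with genes in rows by class and wells in columns as day-replicate. Day 113 replicate 2 is the highest of all 11 wells for most genes, and Day 113 replicate 1 lies closest to the Day 30 level.

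The 4 Day 113 wells had an order that most members shared. Replicate 2 was the highest of the 11 wells for 39 of 44 genes, and replicate 1 was the lowest Day 113 well for 35 of 44. The 44 genes together took 0.308, 0.317, 0.308 and 0.330% of the scaled counts in the Day 30 wells, 0.363, 0.377 and 0.355% at Day 60, and 0.324, 0.507, 0.363 and 0.418% at Day 113 (replicates 1 to 4). The lowest Day 113 value thus lay inside the Day 30 range and the highest lay above every other well. Without replicate 2, 16 of the same 19 genes were called and the median log2 fold change fell to 0.19; NDUFAF4, NDUFB9 and NDUFV2 were lost. Without replicate 1, 34 genes were called, including all 19. Leaving out any other well gave 16 to 22 calls. Transcript length was examined in the Day 113 wells over all genes with a known length and a mean level of at least 1 CPM. In replicate 2, genes with a transcript under 1 kb lay a median of 0.38 log2 units above their mean over all 11 wells. Those over 4 kb had a median of -0.16. The tilt was opposite in replicate 1 (-0.14 and 0.08), and replicates 3 (-0.01 and 0.02) and 4 (0.09 and -0.0008) lay between. These values include any shift between days. From Day 30 to Day 113 the median log2 fold change was 0.12 for all genes under 1 kb and -0.03 for those over 4 kb. For the members it was 0.38 under 1 kb and 0.30 for the longer ones. With a correction for transcript length and GC content, chosen after seeing the data, 28 members were called higher and 1 (NDUFB5, -0.20, edgeR adjusted p = 0.039) lower, with a median of 0.34.

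The 11 libraries held between 24.1 and 34.5 M counts (1 M is 1e+06), all 44 members passed the low-count filter, and their mean level was 10.5 to 195 scaled CPM. All 10 cardiomyocyte markers were above 0 in every well, with a summed level of 28040 to 39158 CPM at Day 30 and 29910 to 32212 CPM at Day 113, and 3 were higher and 2 lower at Day 113. Those higher included TNNC1 (1.04) and TNNT2 (0.66), and the 2 lower were MYH7 (-0.73) and ACTN2 (-0.64). Other cell types' markers moved with day as well. All 10 endothelial markers were higher at Day 113 than at Day 30 (summed 79.6 to 120 CPM, then 243 to 907), with 1 marker at 0 in some well. Of 10 fibroblast and epicardial markers, 5 were higher and 2 lower (3359 to 7715 CPM, then 5480 to 13082), none at 0. Of 6 smooth muscle markers, 4 were higher and 1 lower (859 to 1211 CPM, then 1156 to 1663), and 3 of 6 cycling markers were lower (346 to 435 CPM, then 208 to 405), none of either list at 0. All 10 endoderm and epithelial markers were lower (597 to 1538 CPM, then 14.5 to 56.9), with 3 at 0 in some well. Of the 2 pluripotency markers in the table, LIN28A was lower, and both were at 0 in some well. In bulk RNA a change in the share of a cell type and a change in RNA per cell cannot be told apart, and the part of these shifts in the complex I values was not tested. The endothelial and fibroblast sums were highest in Day 113 replicate 1 (907 and 13082 CPM), the well with the lowest complex I level of that day. They were not lowest in replicate 2, the well with the highest complex I level (404 and 6821 CPM), but in replicate 4 (243 and 5480 CPM). By mean log2 level above Day 30, the fibroblast and epicardial markers were highest in replicate 3 (0.97, against 0.83 in replicate 1).

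The 150 bases before a RefSeq start (GRCh38.p14) are shown for 3 members that rose and 1 that did not pass the test, chosen among the stretches that lay in no exon of the GENCODE annotation, to show which known motifs the promoters hold. Capitals mark a match to a searched motif. NDUFB7 and NDUFAF4 hold the ETS core CCGGAAG bound by GABPA, NDUFA5 holds the estrogen-related receptor element AAGGTCA read on the other strand at its most upstream start, and NDUFC1 holds no motif of the kinds marked. The Sp1 core, which NDUFC1 does hold, is common and was not marked. NDUFAF3, which also rose, had a stretch in no exon as well, which holds no marked motif and is not printed. Whether the motifs go with a rise was not tested. All 4 genes printed lie on the minus strand and are written 5′ to 3′ towards the gene.
NDUFB7, chr19:14572067-14572216: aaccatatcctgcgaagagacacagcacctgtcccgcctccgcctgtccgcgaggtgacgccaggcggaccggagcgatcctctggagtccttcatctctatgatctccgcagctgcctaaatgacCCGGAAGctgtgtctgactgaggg
NDUFAF4, chr6:96897892-96898041: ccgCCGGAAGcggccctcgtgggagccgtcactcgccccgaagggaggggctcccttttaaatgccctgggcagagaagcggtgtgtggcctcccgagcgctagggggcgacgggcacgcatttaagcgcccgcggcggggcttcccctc
NDUFA5, chr7:123601652-123601801: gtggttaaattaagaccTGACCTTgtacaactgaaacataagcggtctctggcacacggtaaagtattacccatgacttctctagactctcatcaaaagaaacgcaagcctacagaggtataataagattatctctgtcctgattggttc
NDUFC1, chr4:139302552-139302701: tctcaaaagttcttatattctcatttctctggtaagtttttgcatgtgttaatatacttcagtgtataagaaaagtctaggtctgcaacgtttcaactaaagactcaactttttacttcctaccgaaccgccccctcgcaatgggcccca

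Motifs of factors known to act on respiratory genes were counted on both strands in windows of 300 bases around the start (250 before, 50 after). A window was found for 37 of the 44 members, and these members had 49 windows, some of them overlapping. The NRF1 core GCGCATGC was in 7 of 49 member windows (14.3%), against 4.08% of 19584 windows of all genes in the table, and the YY1 core AAGATGGC was in 7 (14.3%, against 3.89%). The estrogen-related receptor element AAGGTCA was in 5 (10.2%, against 3.04%), and the CREB site TGACGTCA was in 2 (4.08%, against 2.43%), those of NDUFB2 and NDUFA10. The ETS core CCGGAAG was in 8 (16.3%, against 14.0%), and the Sp1 core GGGCGG was in 32 (65.3%, against 60.0%). Counted per gene, Sp1 turned round (64.9% of the 37 members, against 69.5% of all genes with a window), and ETS was about equal (18.9%, against 18.4%). The other shares per gene were 18.9% against 5.47% for NRF1 and 16.2% against 5.22% for YY1. They were 10.8% against 4.08% for the estrogen-related receptor element and 5.41% against 3.28% for CREB. NDUFB2, with the largest rise, and NDUFA10, which did not pass the test, were thus the 2 members with the CREB site. No searched motif contains another. A match describes the letters only and does not show binding.

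Of the 3 core subunits of the N-module, which carry the flavin and iron-sulfur clusters, 2 rose (NDUFS1 and NDUFV2), and the median log2 fold change was 0.35. NDUFS1, the largest core subunit, had 163, 162, 167 and 173 scaled CPM at Day 30, 211, 179 and 206 at Day 60, and 200, 217, 209 and 262 at Day 113. Every Day 113 well was above every Day 30 well, and the log2 fold change was 0.42 ± 0.10 (SE, adjusted p = 0.003, edgeR). Exons of NDUFS1 overlap those of EEF1B2 on the opposite strand. NDUFV2, an iron-sulfur partner of the flavin subunit, had 65.7, 73.8, 67.9 and 75.0 CPM at Day 30 and 70.2, 117, 81.4 and 90.5 at Day 113, with a log2 fold change of 0.35 ± 0.13 (edgeR adjusted p = 0.047). Its groups overlapped through the Day 113 replicate 1 well. The call was lost without any one of 7 wells, namely each Day 30 well, Day 60 replicate 2 and Day 113 replicates 2 and 4 (edgeR adjusted p = 0.056 to 0.15). Upper-quartile scaling (edgeR adjusted p = 0.066), a fit of only these days (0.055) and limma-voom (adjusted p = 0.063) lost it too. NDUFV1, which binds NADH and the flavin, did not pass (0.23 ± 0.14, edgeR adjusted p = 0.24). Its wells were at 155, 143, 135 and 161 CPM at Day 30 and at 130, 229, 157 and 182 at Day 113.

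The Q-module core subunits NDUFS3, NDUFS7 and NDUFS8 had close values between them. Of these, 0 passed the edgeR test, DESeq2 or limma-voom, and 2 (NDUFS3 and NDUFS7) had an unadjusted p under 0.05 by edgeR. The log2 fold changes at Day 113 against Day 30 were 0.30 ± 0.14 for NDUFS3, 0.28 ± 0.12 for NDUFS7 and 0.25 ± 0.13 for NDUFS8. NDUFS7 contributes to the ubiquinone site, NDUFS8 carries iron-sulfur clusters and NDUFS3 is part of the same module. NDUFS7 had 99.8, 93.6, 102 and 103 CPM at Day 30, 121, 133 and 112 at Day 60, and 97.0, 156, 114 and 118 at Day 113. All Day 60 wells of NDUFS7 were above the Day 30 wells, whereas the Day 113 wells reached from within the Day 30 range to the highest value of all. NDUFS3 had 46.9, 42.1, 40.8 and 50.4 CPM at Day 30, 47.8, 45.5 and 44.8 at Day 60, and 43.5, 71.6, 45.7 and 60.5 at Day 113. NDUFS8 had 93.5, 81.2, 85.8 and 89.0 CPM at Day 30, 92.9, 98.5 and 89.0 at Day 60, and 88.6, 139, 87.1 and 100.2 at Day 113. In both genes Day 113 replicates 2 and 4 were above every Day 30 well and the other 2 were not. NDUFS3 and NDUFS7 were called without Day 113 replicate 1 (0.40 and 0.38, edgeR adjusted p = 0.029 and 0.016), and without Day 113 replicate 2 their values were 0.15 and 0.14 (0.37 and 0.26). With the length and GC correction NDUFS7 and NDUFS8 were called (0.34 and 0.26, edgeR adjusted p = 0.0016 and 0.027).

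**Figure D2:**
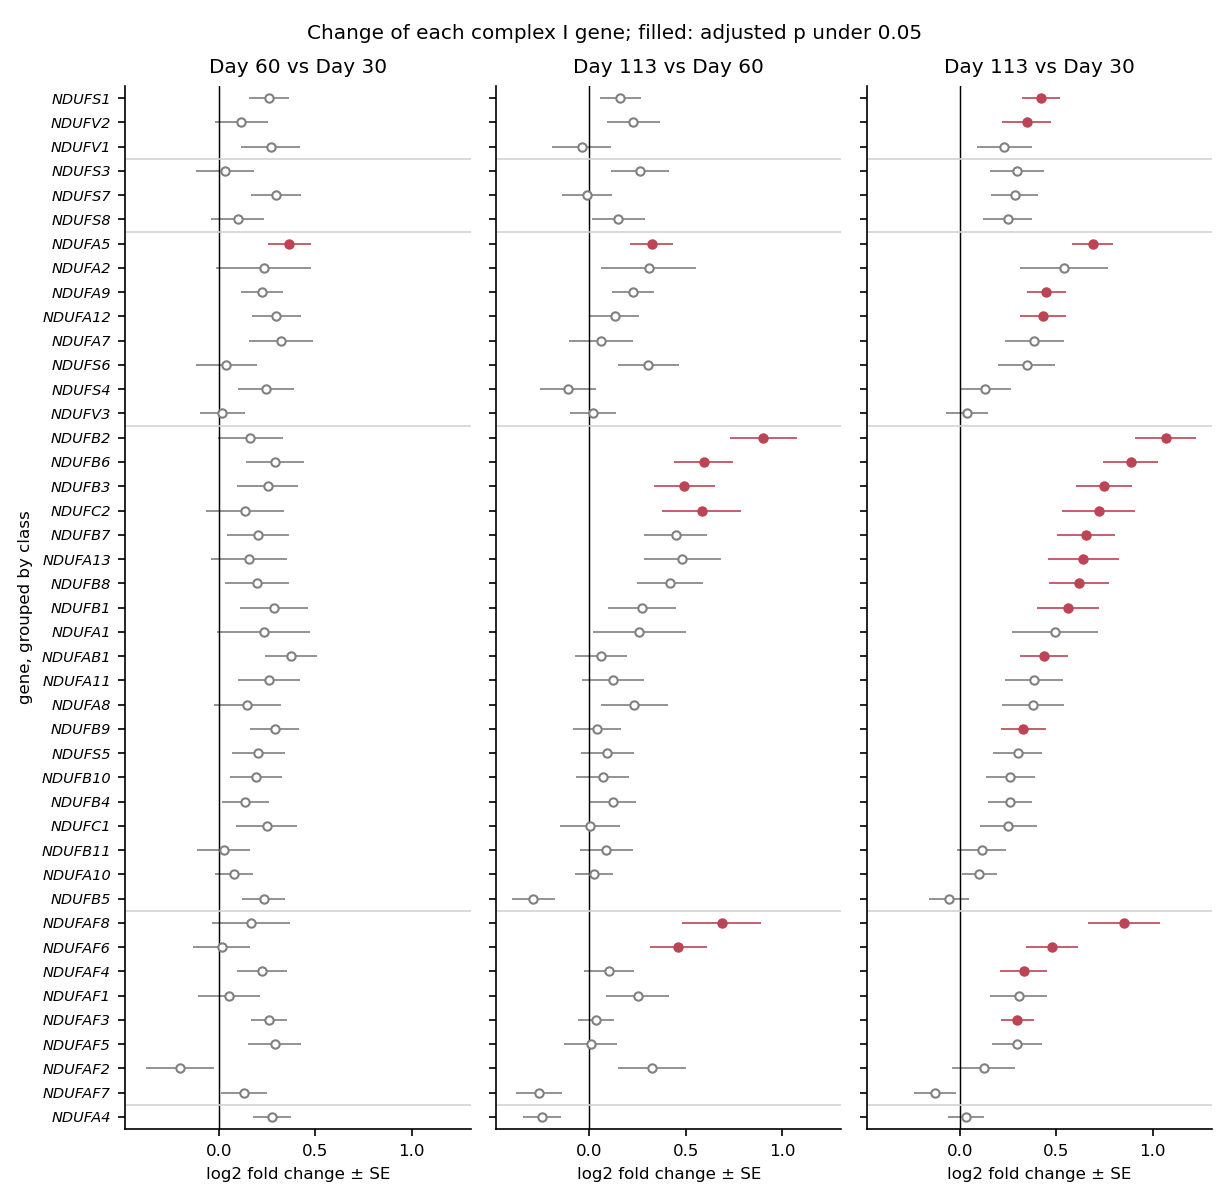
Log2 fold change with its standard error for 43 genes in the 3 comparisons of days, grouped by class; filled points passed the edgeR test at an adjusted p under 0.05. In the comparison of Day 113 with Day 30, 19 points are filled and NDUFB2 lies farthest to the right at 1.07, while 1 point (NDUFA5) is filled for Day 60 against Day 30.

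Among the 8 accessory subunits of the matrix arm, 3 rose by Day 113 (NDUFA5, NDUFA9 and NDUFA12). NDUFA5, an accessory subunit attached to the Q-module, was the single member called in all 3 comparisons of days. It had 126, 127, 136 and 139 CPM at Day 30, 173, 161 and 175 at Day 60, and 172, 249, 203 and 226 at Day 113. All Day 60 and Day 113 wells were above all Day 30 wells, and the log2 fold change from Day 30 to Day 113 was 0.69 ± 0.10 (edgeR adjusted p = 0.00011). Its steps were 0.37 ± 0.11 up to Day 60 (edgeR adjusted p = 0.0488) and 0.32 ± 0.11 after it (0.0489), both just inside the threshold. The first call was lost without any one of 9 wells, all but Day 113 replicates 1 and 2 (edgeR adjusted p = 0.0536 to 0.12), and with the length and GC correction (0.087). The second was lost without any one of 10 wells, all but Day 113 replicate 1 (0.06 to 0.15). It was also lost with RLE scaling (0.058), upper-quartile scaling (0.12), the CPM filter (0.059), the replicate block (0.082), a fit of only these days (0.13), limma-voom (0.051) and the length and GC correction (0.075). NDUFA5 has 12 named pseudogenes, so its counts could be split between copies.

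NDUFA9, which sits where the arms meet, rose by 0.45 ± 0.10 (edgeR adjusted p = 0.0027), with 59.3 to 65.1 CPM at Day 30 and 70.7 to 96.9 at Day 113, which do not overlap. NDUFA12, a subunit related to the assembly factor NDUFAF2, rose by 0.43 ± 0.12 (edgeR adjusted p = 0.0099). NDUFA2, an N-module subunit with a thioredoxin fold, had a high log2 fold change of 0.54 but an SE of 0.23 (edgeR adjusted p = 0.081). It had 12.7, 17.0, 19.8 and 16.3 CPM at Day 30, 20.1, 22.3 and 15.7 at Day 60, and 13.0, 34.2, 22.7 and 26.1 at Day 113, where 3 wells lay above all Day 30 wells and replicate 1 among them. The smallest values of the class belonged to NDUFS4 (0.13 ± 0.13) and NDUFV3 (0.04 ± 0.11, edgeR adjusted p = 0.49 and 0.83). NDUFS4, in which mutations cause Leigh syndrome, had 36.7, 44.1, 38.8 and 45.7 CPM at Day 30, 44.1, 51.9 and 50.8 at Day 60, and 35.7, 56.2, 39.6 and 49.7 at Day 113. NDUFV3 had 50, 55.1, 48.7 and 56.1 CPM at Day 30 and 45.4, 61.2, 49.8 and 59.0 at Day 113, which overlap throughout.

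The 20 accessory subunits of the membrane arm held the largest rise, with 10 called at Day 113 against Day 30. Their median log2 fold change was 0.41, and that of the accessory subunits of the matrix arm was 0.41 as well. NDUFB2, a small subunit of the distal membrane arm, had 42.7, 46.5, 49.1 and 56.6 CPM at Day 30, 51.1, 61.6 and 51.2 at Day 60, and 72.5, 140, 92.3 and 104 at Day 113. Its step up to Day 60 did not pass (0.16 ± 0.17), and every Day 113 well lay above every earlier well. Its Day 113 level was 2.09 times that of Day 30 (log2 1.07 ± 0.16, edgeR adjusted p = 9.4e-05), and it rose by 0.90 ± 0.17 after Day 60 (0.0016). The difference between these steps was not called by edgeR with all wells. Exons of NDUFB2 overlap those of ADCK2, BRAF and the antisense gene NDUFB2-AS1. The antisense gene itself had 0.315 to 1.72 CPM in the 11 wells, and whether counting used strand is not given in the sources used here.

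NDUFB6, another distal subunit, had 26.4, 31.8, 30.3 and 37.3 CPM at Day 30, 39.8, 40.7 and 34.9 at Day 60, and 46.2, 72.5, 51.1 and 62.7 at Day 113. The Day 113 wells all lay above the earlier ones, at 1.85 times the Day 30 level (log2 0.88 ± 0.14, edgeR adjusted p = 0.00017). Its exons overlap those of SMIM27 on the opposite strand. The other members called in this class were NDUFB3 (0.75 ± 0.15), NDUFC2 (0.72 ± 0.19), NDUFB7 (0.65 ± 0.15), NDUFA13 (0.64 ± 0.18), NDUFB8 (0.62 ± 0.16), NDUFB1 (0.56 ± 0.16), NDUFAB1 (0.43 ± 0.12) and NDUFB9 (0.33 ± 0.12). NDUFB9 lost its call without any one of 7 wells, the same as for NDUFV2 (edgeR adjusted p = 0.0502 to 0.11). Upper-quartile scaling (edgeR adjusted p = 0.056) and limma-voom (adjusted p = 0.0525) lost it too. NDUFAB1, the mitochondrial acyl carrier protein, had 78.4 to 82.7 CPM at Day 30, 100 to 109 at Day 60 and 86.2 to 138 at Day 113.

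At the other end of the class stood NDUFA10, a subunit with a nucleoside kinase fold, and NDUFB5. NDUFA10 had 183, 192, 183 and 191 CPM at Day 30 and 186, 228, 180 and 209 at Day 113 (0.10 ± 0.09, edgeR adjusted p = 0.43). NDUFB5 had 147, 151, 152 and 151 CPM at Day 30, 163, 181 and 185 at Day 60, and 121, 174, 132 and 151 at Day 113. Its Day 60 wells were above all Day 30 wells, and its Day 113 wells spread to both sides of them (-0.06 ± 0.10, edgeR adjusted p = 0.71).

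**Figure D3:**
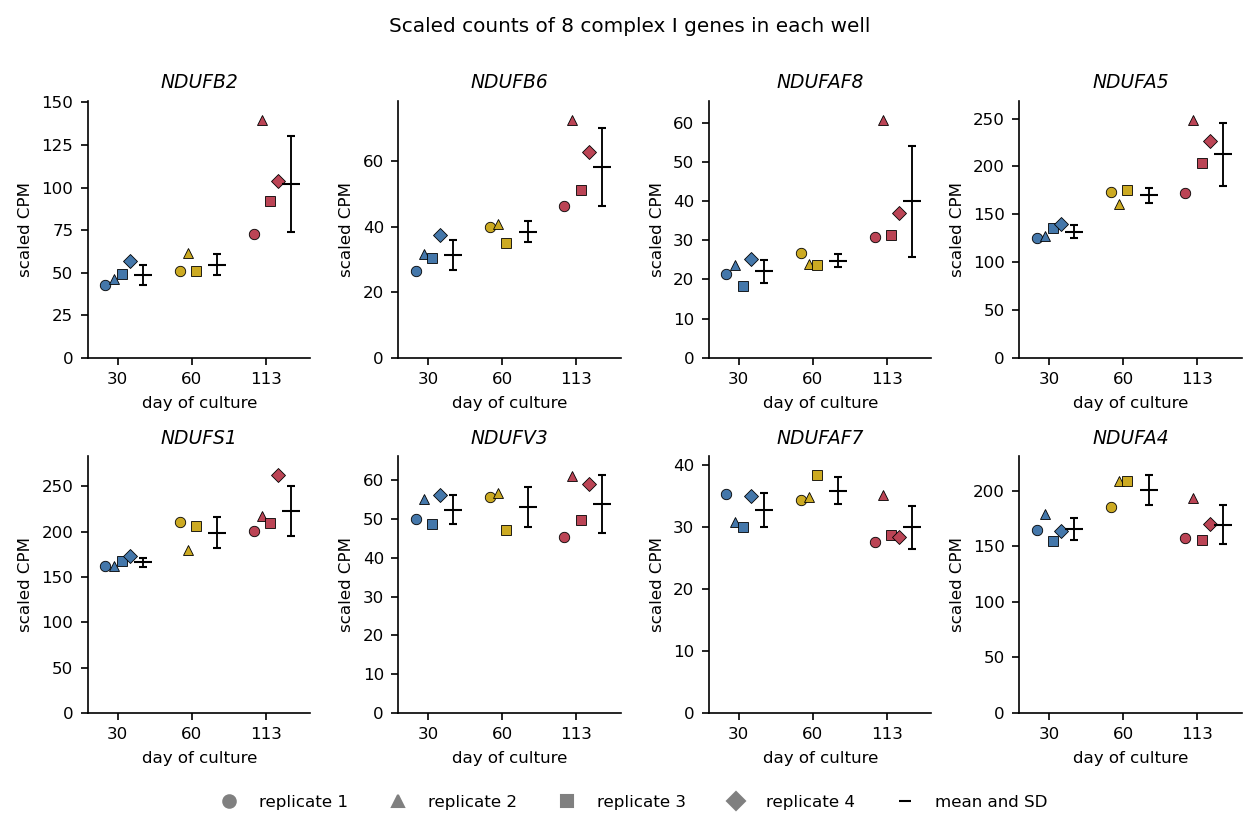
Scaled CPM of 8 genes in each well by day of culture, with the mean and SD of each day beside the points. Marker shape gives the replicate number, which was not taken to link wells across days. NDUFB2, NDUFB6, NDUFAF8 and NDUFA5 have all Day 113 wells above all Day 30 wells, while NDUFV3 and NDUFA4 overlap.

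The 8 NDUFAF assembly factors had a lower median level than the subunits, with single genes of both overlapping. Per kilobase of the principal annotated transcript, the median Day 30 level was 12.8 CPM for the assembly factors and 63.3 CPM for the subunits. Of the 8 factors, 4 rose by Day 113 (NDUFAF3, NDUFAF4, NDUFAF6 and NDUFAF8), as did 15 of the 35 subunits, and the medians of the log2 fold change were 0.30 and 0.38. For the mean log2 CPM of the subunits minus that of the factors, the Day 30 value was 1.57 ± 0.04 (SD, n = 4), the Day 60 value 1.65 ± 0.08 (SD, n = 3) and the Day 113 value 1.64 ± 0.13 (SD, n = 4). The difference between Day 113 and Day 30, 0.07, was smaller than the SD of the Day 113 wells, which ran from 1.45 in replicate 1 to 1.77 in replicate 2.

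NDUFAF8, a small stabilising partner of NDUFAF5, changed most among the factors. It had 21.4, 23.6, 18.3 and 25.1 CPM at Day 30, 26.7, 24 and 23.7 at Day 60, and 30.7, 60.8, 31.4 and 36.9 at Day 113. All Day 113 wells were above the earlier ones, although replicate 2 stood far above the other 3 wells, and the log2 fold change was 0.85 ± 0.19 (edgeR adjusted p = 0.0021). NDUFAF6, which is needed for an early step of assembly, had 14.6, 17.5, 18.7 and 17.0 CPM at Day 30, 17.2, 17.8 and 16.4 at Day 60, and 21.9, 29, 19.9 and 23.6 at Day 113. Its step up to Day 60 was 0.02 ± 0.15 and did not pass, and the step after it was 0.46 ± 0.15 (edgeR adjusted p = 0.033). That call was lost without any one of 5 wells, the 3 Day 60 wells and Day 113 replicates 2 and 4 (0.0533 to 0.1). The difference between these steps did not pass, so a change of pace at Day 60 is not shown. Over the whole span NDUFAF6 rose by 0.48 ± 0.14 (edgeR adjusted p = 0.013).

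NDUFAF3 and NDUFAF4, which work as partners in building the Q-module, rose by 0.30 ± 0.09 (edgeR adjusted p = 0.013) and 0.33 ± 0.12 (0.044). The call of NDUFAF4 was lost with the length and GC correction (edgeR adjusted p = 0.32) and without any one of 6 wells, Day 30 replicates 1 to 3 and Day 113 replicates 2 to 4 (0.0517 to 0.11). Upper-quartile scaling (edgeR adjusted p = 0.065) and limma-voom (adjusted p = 0.0506) lost it too. NDUFAF7, a methyltransferase, had a log2 fold change of -0.13 ± 0.11 (edgeR adjusted p = 0.40). It had 35.3, 30.8, 30.0 and 34.9 CPM at Day 30, 34.4, 34.8 and 38.4 at Day 60, and 27.6, 35.1, 28.6 and 28.4 at Day 113, with 3 of the 4 Day 113 wells below every earlier well. NDUFAF2 had 8.29, 11.8, 10.8 and 11.3 CPM at Day 30, 9.96, 8.29 and 9.27 at Day 60, and 10.3, 13.2, 10.2 and 12.4 at Day 113 (0.12 ± 0.16, edgeR adjusted p = 0.61), with overlapping groups.

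NDUFA4, the complex IV subunit, had 165, 179, 155 and 164 CPM at Day 30, 185, 209 and 209 at Day 60, and 157, 194, 156 and 170 at Day 113. The Day 60 wells were above all Day 30 wells, and 3 of the 4 Day 113 wells lay in the Day 30 range (0.03 ± 0.09 from Day 30 to Day 113). Neither step passed (0.28 ± 0.10 and -0.25 ± 0.10, edgeR adjusted p = 0.095 and 0.087), nor did the difference between the steps (-0.52 ± 0.17, edgeR adjusted p = 0.074). DESeq2 called both steps and the difference (adjusted p = 0.035, 0.039 and 0.021), as did edgeR without Day 113 replicate 2 (0.033, 0.015 and 0.017). Upper-quartile scaling and the length and GC correction called the second step (0.033 and 0.014) and the difference (0.034 and 0.025), a fit of only Day 30 and Day 60 the first step (0.025), and the CPM filter the difference (0.044). Its paralogue NDUFA4L2, known as a target of the hypoxia factor HIF-1, is outside the symbol rule. NDUFA4L2 had 11.4, 14.1, 10.9 and 11 CPM at Day 30, 34.0, 30.5 and 40.8 at Day 60, and 28.3, 31.7, 37.7 and 22.5 at Day 113. It rose by 1.56 ± 0.17 up to Day 60 (edgeR adjusted p = 3.1e-05) and did not pass after it (-0.22 ± 0.17), and the difference between these steps was called (-1.79 ± 0.29, edgeR adjusted p = 0.0016).

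Split by interval, the members gave few calls. From Day 30 to Day 60, 1 of 44 members was higher (2.27%, against 4.39% of all genes) and 0 were lower (against 5.91%), while 43 had a value above 0 with a median of 0.21, and 8 were higher (against 10.1% of all genes) and 0 lower at an unadjusted p under 0.05. In this interval DESeq2 called 4 higher (against 6.01% of all genes), limma-voom 1 (against 3.87%) and a fit of only these 2 days 11 (against 7.0%). In 14 members every Day 60 well was above every Day 30 well, against 10.7% of all genes. From Day 60 to Day 113, 7 members were higher (15.9%, against 12.9% of all genes) and 0 lower (against 11.1%, with 3 lower at an unadjusted p under 0.05, 2 lower by DESeq2 and 0 by limma-voom), with a median of 0.14. The median was 0.03 without Day 113 replicate 2, with 24 of 44 values above 0, 0.21 without Day 113 replicate 1, 0.07 with upper-quartile scaling and 0.47 on the log2(TPM + 1) scale, where 27 of 44 were above 0. The TPM values imply gene lengths that do not agree between libraries, so that last median carries little weight. The share called higher in this interval lay near that of all genes. The 7 were NDUFB2, NDUFB6, NDUFB3, NDUFC2, NDUFA5, NDUFAF8 and NDUFAF6, and all 7 were also called over the whole span, which shares the Day 113 wells. The NDUFC2 call after Day 60 was lost without any one of 8 wells (edgeR adjusted p = 0.057 to 0.23). The NDUFB3 call was lost without any one of 4 wells (0.075 to 0.12), NDUFAF8 without any one of 2 (0.066 and 0.08) and NDUFB6 without 1 (0.057). Upper-quartile scaling lost NDUFC2 (edgeR adjusted p = 0.085) and NDUFB3 (0.062) too. Without Day 113 replicate 2, 3 were higher and 3 lower after Day 60 (NDUFA4, NDUFAF7 and NDUFB5). Without Day 60 replicate 3, 2 were called, 3 without Day 60 replicate 1, Day 60 replicate 2 or Day 113 replicate 4, and 12 without Day 113 replicate 1. The change after Day 60 differed from the change before it in 0 members by edgeR (against 9.34% of all genes), with 3 at an unadjusted p under 0.05, 1 called by DESeq2 and 0 by limma-voom, and leaving out Day 113 replicate 1 or 2 gave 1 and 2 calls. Over the whole span, 14 of the 44 members had every Day 113 well above every Day 30 well, against 17.1% of all genes.

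Transcript length and base composition varied widely among the members, with principal transcripts of 528 to 11819 bases. Across the 44 members, Spearman's rho of the log2 fold change (Day 113 against Day 30) was -0.25 with transcript length, 0.03 with GC content and -0.22 with mean level. The deviation of Day 113 replicate 2 from its day's mean had a rho of -0.58 with transcript length. These points share the same 11 libraries. Of the 22 members with a transcript under 1 kb, 10 were called, as were 9 of the 22 longer ones. Exons of 12 of the 19 called members overlap another annotated gene, and 10 of the 19 have named pseudogenes.

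The 12 assembly factors of complex I that carry other names were mixed. At Day 113 against Day 30, 4 were higher (33.3%, against 17.3% of all genes) and 2 lower (against 17.2%), with a median log2 fold change of 0.21. TMEM126A, a membrane assembly factor, had 13.4, 12.7, 13.3 and 12.8 CPM at Day 30, 14.7, 15.4 and 14.7 at Day 60, and 18.6, 23.1, 21.4 and 26.4 at Day 113 (0.77 ± 0.13, edgeR adjusted p = 0.00024). Its paralogue TMEM126B, of the complex that builds part of the membrane arm, rose by 0.72 ± 0.14, DMAC1 by 0.46 ± 0.12 and TIMMDC1 by 0.39 ± 0.09. COA1 fell by 0.34 (SE 0.08, edgeR adjusted p = 0.0035), and DMAC2 fell by 0.26 (SE 0.09, edgeR adjusted p = 0.034), a call lost without any one of 9 wells, all but Day 60 replicate 2 and Day 113 replicate 2 (0.0506 to 0.11). The COA1 wells were at 78.4 to 84.1 CPM at Day 30 and 60.6 to 69.2 at Day 113 and did not overlap. NDUFAF1 and its partners ACAD9 and ECSIT did not pass (0.30, 0.21 and -0.16).

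Of 13 genes for regulators of mitochondrial genes, 0 were higher and 4 lower at Day 113 against Day 30. At an unadjusted p under 0.05, 0 were higher. Of all genes, 17.3% were called higher and 17.2% lower in this comparison. The same 4 regulators were lower against Day 60. PPARGC1A, which encodes the coactivator PGC-1 alpha, had 99.9, 68.9, 66.7 and 96.3 CPM at Day 30, 109, 86.3 and 80.3 at Day 60, and 43.7, 29.1, 52.8 and 65.5 at Day 113. Its Day 113 wells lay below all earlier wells (-0.80 ± 0.20, edgeR adjusted p = 0.0058), and the well with the highest complex I level, replicate 2, had the lowest value. ESRRG, an estrogen-related receptor prominent in heart, had 83.4, 71.4, 79.2 and 81.7 CPM at Day 30, 94.4, 62.6 and 77.8 at Day 60, and 49.1, 39.6, 50.4 and 46.2 at Day 113, again below all earlier wells (-0.77 ± 0.12, edgeR adjusted p = 0.00014). ESRRB had 7.66 to 14.0 CPM at Day 30 and 0.913 to 4.04 at Day 113 (-2.14 ± 0.41, edgeR adjusted p = 0.00082). PPARA, a receptor that turns on fatty acid oxidation genes, changed by -0.44 ± 0.12 (edgeR adjusted p = 0.008). NRF1 (0.01 ± 0.12), GABPA (0.07 ± 0.14), YY1 (-0.06 ± 0.09) and TFAM, the mitochondrial DNA packaging factor (0.09 ± 0.10), did not pass, nor did ESRRA.

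**Figure D4:**
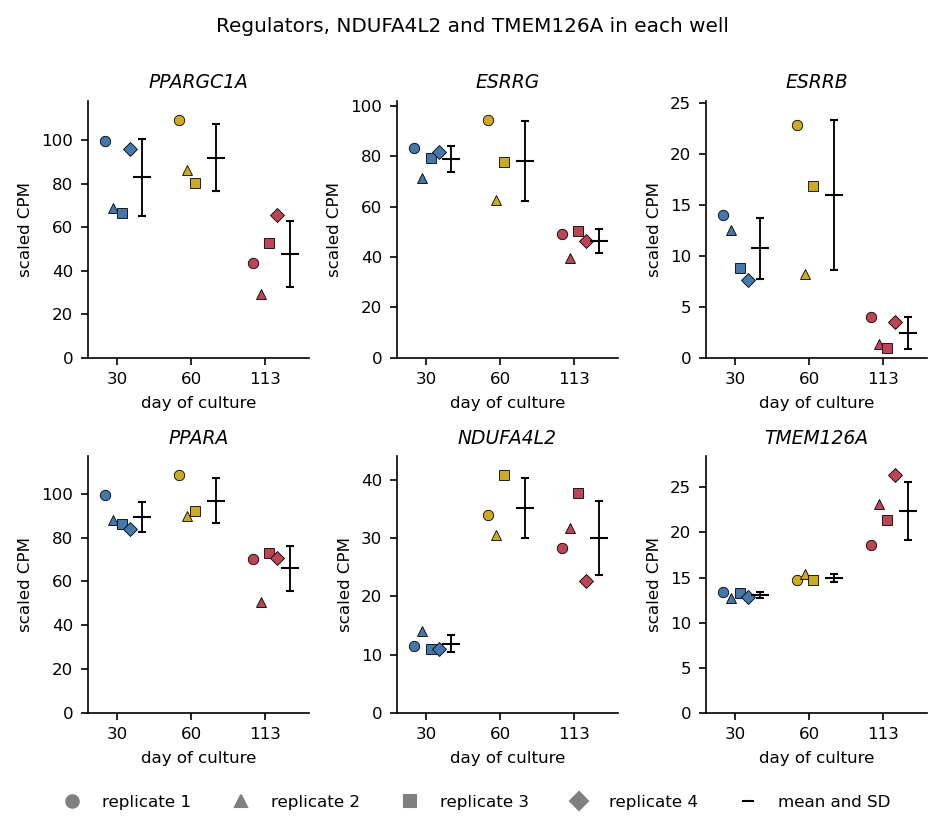
Scaled CPM in each well by day of culture for 4 regulators, NDUFA4L2 and TMEM126A, with the mean and SD of each day beside the points. The 4 regulators have all Day 113 wells below all Day 30 wells, NDUFA4L2 is higher from Day 60 on, and TMEM126A is higher at Day 113.

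The other respiratory complexes are given beside complex I for Day 113 against Day 30, and the difference between complexes was not tested. Of all genes, 17.3% were called higher and 17.2% lower in this comparison. Complex II had 3 of 4 subunits higher and 1 lower, and the lower one was SDHA, its flavin subunit (-0.51, edgeR adjusted p = 0.0011). Complex III had 2 of 9 higher and 0 lower, led by UQCRQ (0.75). Complex IV had 3 of 13 higher, led by COX6C (0.50), and 1 lower, COX4I2, which had 0.378 to 0.764 CPM at Day 30 and 0 counts in all Day 113 wells. Complex V had 4 of 17 higher and 0 lower, among them ATP5MC1 (0.83). Median log2 fold changes were 0.40, 0.15, 0.18 and 0.26 for complexes II to V, beside 0.38 for the complex I subunits. The shares called higher were 75.0, 22.2, 23.1 and 23.5% for complexes II to V, beside 42.9% for the complex I subunits. Those of complexes III to V lay near the share of all genes. Of 14 genes that supply iron-sulfur clusters and flavin, which complex I carries, 6 were higher (42.9%) and 0 lower, with BOLA3 (0.86) and ISCU (0.68) in front. Of 16 genes for mitochondrial import and matrix upkeep, 3 were higher (18.8%, near the share of all genes) and 3 lower with a median of 0.06. VDAC3 (0.58) and TIMM23 (0.56) rose, and TOMM20 (-0.81) and citrate synthase, CS (-0.56), fell.

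**Figure D5:**
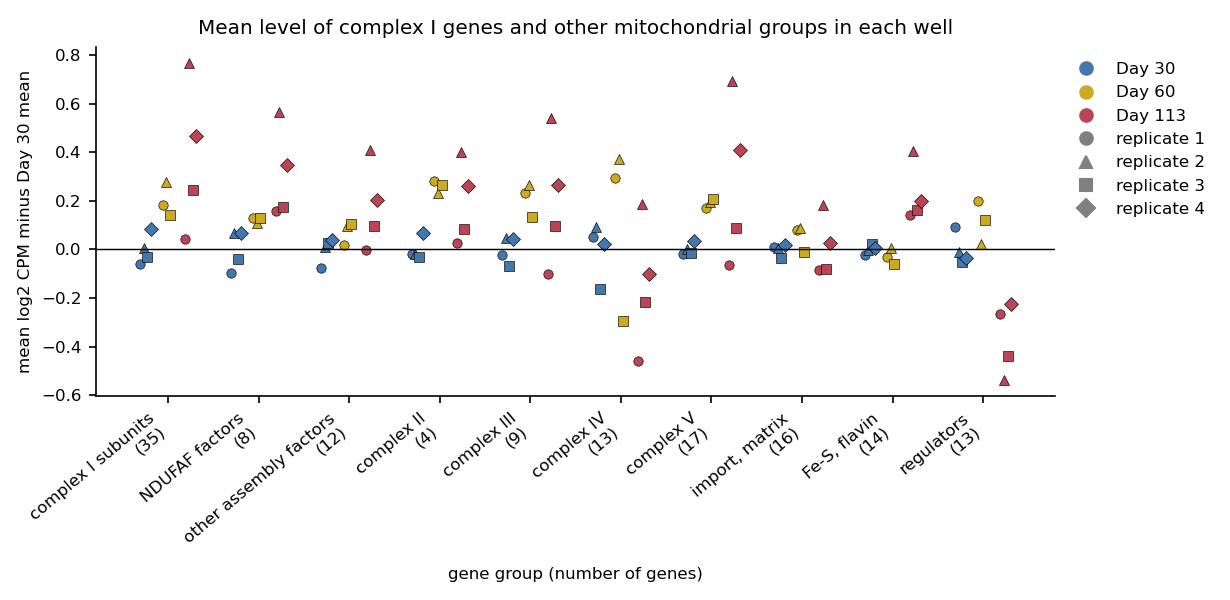
Mean log2 CPM of each gene group in each well, minus the mean of the Day 30 wells, for complex I subunits, assembly factors and other mitochondrial groups; colour gives the day and marker shape the replicate number. In Day 113 replicate 2 the complex I subunits reach 0.77 and complex V reaches 0.69, while the regulators are at -0.54. Complex IV includes 2 genes at 0 in some well. Its Day 113 wells average -0.15, although the median log2 fold change of its genes was 0.18.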

How the data were processed

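The authors deposited whole-number read counts per gene symbol and a table of TPM values for 11 libraries. Per the submitters' processing notes, STAR 2.5.3a, featureCounts 2.0.3 and hg38 were used, and the annotation and strand setting are not given in the sources used here. Libraries were paired-end 150-bp poly(A) RNA, per the labels' protocols. The deposited TPM values imply gene lengths that do not agree between libraries (median Spearman rho -0.0016 over 55 pairs), so they entered only as an alternative, as log2(TPM + 1) in limma 3.58.1.

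All 19990 genes were tested with edgeR 4.0.16 (R 4.3.3, glmQLFit and glmQLFTest) with TMM scaling, day as the only factor, all 11 libraries in one fit (8 residual degrees of freedom) and Benjamini-Hochberg adjustment per contrast at 0.05. The filterByExpr step (minimum count 10) removed 0 genes. Scaled CPM are counts per 1e+06 of the TMM-adjusted library size (factors 0.966 to 1.04). The SE comes from the F statistic, as |log2 fold change| over its root. Wells of a day differed by more than counting noise (chi-square over its degrees of freedom between 11.4 and 84.0), so each counted as 1 sample. The test was checked on simulated data. Alternatives were other scalings, filters and tools (DESeq2 1.42.0, limma-voom), a replicate block, leaving out each well and a length and GC correction over GENCODE 29 transcripts, the last chosen after seeing the data. Lengths were found for 84.7% of genes and all 44 members. The subunit minus assembly factor difference was described with no test. NDUFA3, NDUFA6 and mitochondrially encoded genes are not analysed here, and 1 of the 44 members enters the counts and medians but is not reported here by itself.

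The members, their classes and the other gene lists were chosen with earlier results of these data known. Any of the 44 genes, other genes starting with NDUF, the other assembly factors and the regulators could be named. Apart from the member not reported by itself, the Day 30 and Day 113 wells are given for the 2 highest and 2 lowest changes of each class. These are the changes at Day 113 against Day 30. Their Day 60 wells are given as well, except for NDUFV1, NDUFV2, NDUFV3 and NDUFA10. Of the remaining lists, only counts, medians and up to 2 called genes per direction with the largest change are given. RefSeq promoter windows were matched by symbol.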

Additional observations from a re-analysis of the deposited data

Results flagged for a closer look

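Among 86 groups of 4 wells (43 named genes at Day 30 and at Day 113), 5 held a well far from the other 3, and chance flags about 1 in 20 such groups. NDUFB5 at Day 30 had its lowest well at 147 CPM in replicate 1, and the whole range of that day was narrow. NDUFAF7 at Day 113 had its highest well at 35.1 CPM in replicate 2. TMEM70, an assembly factor of complexes I and V, had its highest Day 113 well at 38.4 CPM in replicate 2, and PPARA had its lowest there, at 50.7 CPM. NDUFA4L2 at Day 30 had its highest well at 14.1 CPM in replicate 2.

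In 3 named genes outside the members, the change after Day 60 differed from the change before it by a test of the difference itself (edgeR, adjusted over all genes). The difference was -1.79 on the log2 scale for NDUFA4L2, -0.74 for ESRRG and -3.28 for ESRRB, with adjusted p = 0.0016, 0.048 and 0.0088 by edgeR. The first step was upward in NDUFA4L2 (4 of 4 Day 30 wells below every Day 60 well), and the second step was downward in ESRRG and ESRRB (4 of 4 Day 113 wells below every Day 60 well). The intervals share the Day 60 wells. The ESRRG call was lost without any one of 8 wells, all but Day 60 replicate 2 and Day 113 replicates 1 and 2 (edgeR adjusted p = 0.0514 to 0.3), and the ESRRB call without Day 60 replicate 1 (0.089).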

How the results depend on the processing

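Counts of members called depended on single wells. Leaving out 1 well at a time gave 0 to 6 calls for Day 60 against Day 30, 2 to 12 for Day 113 against Day 60, 16 to 34 for Day 113 against Day 30 and 0 to 2 for the difference between the intervals. For Day 60 against Day 30 (1 call), the count was 0 at an adjusted p under 0.01 and with TPM, 2 with upper-quartile scaling, with a CPM of at least 1 in 3 libraries and with the length and GC correction, 4 with DESeq2 and 11 in a fit of only these 2 days. For Day 113 against Day 60 (7 calls), it was 1 at an adjusted p under 0.01, 3 in a fit of only these days, 12 with the length and GC correction (9 higher and 3 lower, NDUFA4, NDUFAF7 and NDUFB5) and 0 with TPM, and upper-quartile scaling gave 3 higher and 2 lower (NDUFA4 and NDUFB5). For Day 113 against Day 30 (19 calls), it was 11 at an adjusted p under 0.01, 29 with the length and GC correction (28 higher and 1 lower) and 0 with TPM. In the same comparison it was 16 with upper-quartile scaling and with limma-voom, both without NDUFAF4, NDUFB9 and NDUFV2. A fit of only these days gave 18, DESeq2 21 and library totals only 22. For the difference between the intervals (0 calls), it was 1 with upper-quartile scaling, with a CPM of at least 1 in 3 libraries and with DESeq2, and 3 with the length and GC correction. The TPM fit called 0 of all genes in any comparison. The subunit minus assembly factor difference (0.07) was 0.25 with TPM and 0.03 to 0.13 when wells were left out. A library's scaling factor enters both means alike and nearly cancels, so other scalings could hardly move this difference and are no check of it.

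Same-numbered wells of different days deviated together only weakly (correlations of 0.02 to 0.08 over 10 pairs, with the highest value of a well at its own number in 17 of 20 checks, a hint from the data and not from the design), so the numbers were not taken to pair wells. The replicate block gave 1, 8 and 22 calls for the 3 comparisons of days and 0 for the difference.

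Of 68 single-gene changes, all kept their direction under other scalings, the stricter CPM filter, DESeq2, limma-voom and the block. The low-count filter had removed 0 genes, so the fit without it was the same fit and is no check. The stricter filter leaves a gene's own counts as they are, so it is a weak check of direction. Directions turned for NDUFV3 (-0.0295 to 0.11 when 1 well was left out, and -0.00884 without Day 113 replicate 4), NDUFB5 (-0.16 to 0.02, with 0.0192 without Day 113 replicate 1) and NDUFA4 (-0.0406 to 0.0778, the lowest without Day 113 replicate 2, and -0.000448 without Day 30 replicate 3; -0.0656 with the length and GC correction), all for Day 113 against Day 30 and none of them called there by the reported test. With TPM the change from Day 30 to Day 113 turned for NDUFV1 (-0.18), NDUFS3 (-0.63), NDUFS8 (-0.54), NDUFA5 (-0.38), NDUFS4 (-1.97), NDUFAF2 (-0.87), NDUFA4 (-1.32), NDUFB3 (-1.58), NDUFB8 (-0.79), NDUFB9 (-0.023), NDUFC2 (-0.010), NDUFAF3 (-0.23), NDUFA4L2 (-1.47), DMAC2 (1.15) and PPARA (0.35). That from Day 60 to Day 113 turned for PPARA (2.11), TMEM126A (-0.50) and TMEM70 (-0.65), and that from Day 30 to Day 60 for NDUFA5 (-0.91), NDUFA4 (-0.26) and NDUFA4L2 (-0.64). The TPM values imply gene lengths that do not agree between libraries (median Spearman rho -0.0016). These turns therefore say little about the direction of the changes in the counts, and their cause was not tested.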
